A study of Mus musculus with 9 samples.

Results

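G2C9 is a derivative of NP53, a mouse cell line of diffuse midline glioma, and its libraries were compared with those of the parental line, which the labels call Gcontrol. The comparison took all 3 G2C9 and all 3 Gcontrol libraries, 6 of the 9 in the series, and every gene counted in them. NP53 cells carry the genotype WT in the labels, whereas G2C9 and the second derivative, G1C7, are labelled as TIM-3 knockouts. Cells of the 3 groups were grown in the same serum-containing medium, and no treatment or time point separates them. G1C7, with 3 libraries, was used to show which changes set G2C9 apart. The labels do not say how a derivative was made, whether it grew from a single cell, or whether the 3 libraries of a group came from separate cultures. The p-values therefore measure only the spread between these libraries, and the knockout cannot be told apart from other differences between a derivative and its parental line.

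Diffuse midline glioma is a childhood tumour of the brainstem, thalamus and spinal cord. TIM-3, the product of Havcr2, is a surface receptor best known for restraining T cells and for its roles in myeloid cells, and it binds galectin-9, CEACAM1 and HMGB1 among other ligands.

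Each library was a stranded poly(A) library read in pairs, and the deposited values were reads per gene. The G2C9 libraries held 50110129 to 51469673 reads in genes, the Gcontrol libraries 53476717 to 56035382 and the G1C7 libraries 53231484 to 55743695. Levels are given in CPM, reads scaled to a common library size and adjusted for composition, and 1 read pair was worth 0.0353 to 0.0408 CPM. G2C9 replicate 3 stood apart from replicates 1 and 2. On the second principal component, with 24.8% of the variance, it lay at -49.8 against 27 and 28.7, on the side of G1C7 replicate 2 at -79.4. On the third, with 16.8%, the G2C9 libraries lay together at -33.7, -34.3 and -45.6, the Gcontrol libraries at 1.6 to 2.9 and the G1C7 libraries at 33 to 37.6. G2C9 replicate 3 and G1C7 replicate 2 are called the outlying libraries, and the counts of the gene lists are given with and without both.

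In all, 2109 of 15659 genes tested (13.5%) passed the edgeR test against Gcontrol at a Benjamini-Hochberg adjusted p under 0.05, 979 higher (6.25%) and 1130 lower (7.22%) in G2C9. At least 2-fold changes were unequal in direction, with 223 genes higher (1.42%) and 618 lower (3.95%). Leaving out single libraries gave 878 (without Gcontrol replicate 1) to 4113 (without G1C7 replicate 2). Without both outlying libraries 8383 of 15808 genes passed (53%), and 2108 of the 2109 were among them. In that fit 25.6% of the 15659 genes were called higher and 27.5% lower, the background for every count given without both outlying libraries. Against G1C7, 526 genes passed (3.36%), 258 higher (1.65%) and 268 lower (1.71%). A gene was called set apart only where G2C9 differed in the same direction from both other groups, taking the larger p of the 2 comparisons and adjusting over all genes. That held for 62 genes (0.396%), of which 12 were higher (0.0766%) and 50 lower (0.319%). Without single libraries the count was 30 to 175, and without both outlying libraries 1474 (9.32%), all 62 among them. In all 62, none of the 3 G2C9 libraries overlapped any of the other 6, as in 7.43% of all genes tested. The 62 were called from these same libraries, so this separation adds no support to the calls. For G1C7 against Gcontrol, 2740 genes passed (17.5%), 1373 higher (8.77%) and 1367 lower (8.73%).

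**Figure D1:**
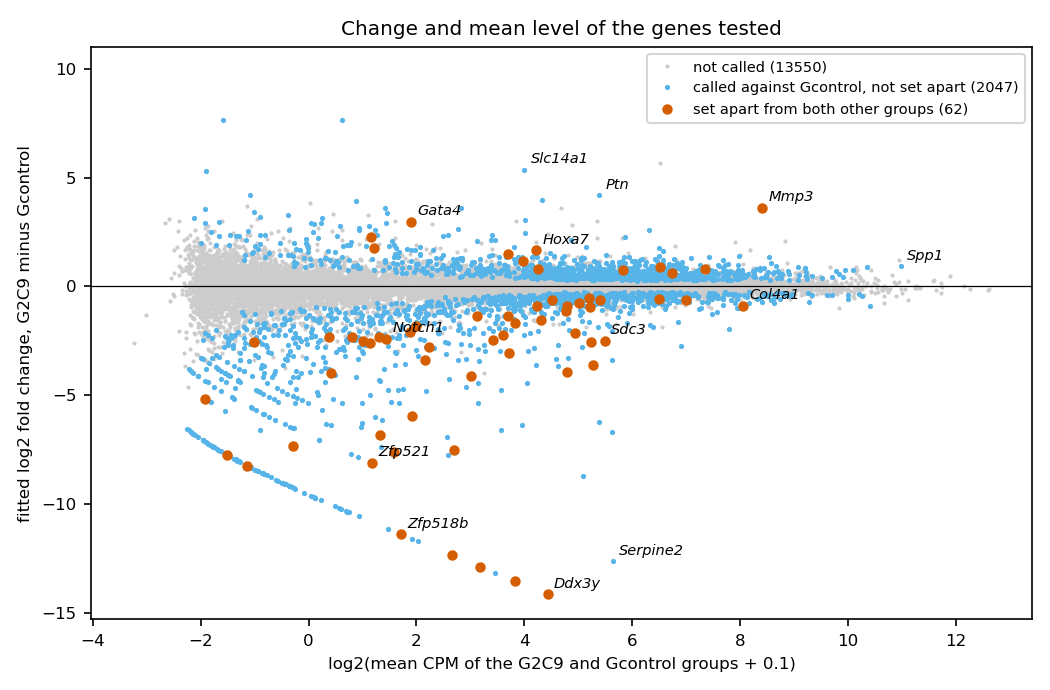
Fitted log2 fold change of G2C9 against Gcontrol (vertical axis) against the log2 of the mean CPM of both groups plus 0.1 (horizontal axis), 1 point per gene tested. The 62 genes set apart from both other groups are orange, and 50 of them lie below the zero line; the curved lower edge holds genes with 0 reads in G2C9, whose fitted values are not measured folds.

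The targeted transcript was read at a low level in each group. Havcr2 stood at 0.772, 0.612 and 0.547 CPM in G2C9 and at 1.37, 1.07 and 1.06 in Gcontrol. The G2C9 values all lay below the Gcontrol values, but the change of -0.85 ± 0.64 (log2 ± SE) did not pass the test (adjusted p = 0.448). Of the alternatives run, it passed without G1C7 replicate 2 and without both outlying libraries (-0.75, adjusted p = 0.0293 in the second case). Counts do not show an edit that leaves the transcript in place, so the label was not checked by this value. Of the ligands, Lgals9 (galectin-9) stood at 2.38, 2.86 and 9.68 CPM in G2C9 and at 17.8, 17.2 and 18 in Gcontrol (-1.83 ± 0.55, adjusted p = 0.0604). Without G2C9 replicate 3 the Lgals9 change was -2.75 and passed (adjusted p = 0.00486). Hmgb1 stood at 577 ± 64.7 CPM (SD, n = 3) in G2C9 and 519 ± 14.7 in Gcontrol (adjusted p = 0.593), and Ceacam1 stayed under 0.4 CPM in each of the 6 libraries (adjusted p = 0.314). Of these 4 genes 0 were called with all libraries. Without both outlying libraries 2 were called higher and 2 lower, against 25.6% and 27.5% of all genes.

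The clearest gain in G2C9 was Mmp3 (ENSMUSG00000043613.8, GRCm38 chromosome 9, 7445822 to 7455975, plus strand), which encodes stromelysin-1, a secreted protease of matrix proteins. It stood at 409, 427 and 1039 CPM in G2C9, at 50, 51.8 and 51.3 in Gcontrol and at 71.5, 53.9 and 77.4 in G1C7. Even the lowest G2C9 library was far above the highest of the other 6. The change against Gcontrol was 3.61 ± 0.37 (adjusted p = 7.11e-04) and the joint test over both groups gave an adjusted p of 0.00655, with the call kept when any of the 9 libraries was left out. Without G2C9 replicate 3, its highest library, the Mmp3 change was 3.04 (adjusted p = 6.84e-05).

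Mmp3 lies in a cluster of matrix metalloproteinase genes on chromosome 9, and its neighbours in the cluster moved with it. Of 6 tested members within 286 kb, 4 were called higher and 0 lower, against 6.25% and 7.22% of all genes. In the first 10 Mb of chromosome 9, cluster included, 12 of 28 tested genes were called higher. The median change there was 0.6 in G2C9 and 0.42 in G1C7. Mmp10, which encodes stromelysin-2, stood at 57.5, 57.7 and 292 CPM in G2C9 and at 21.9, 24.3 and 21.5 in Gcontrol (2.59 ± 0.59, adjusted p = 0.022). G2C9 replicate 3 weighed on that size: without it the Mmp10 change was 1.36 (adjusted p = 1.82e-04). Mmp13, which encodes collagenase-3, stood at 37.2, 39.7 and 84.6 CPM against 23.3, 25.2 and 24.3 (1.15 ± 0.29, adjusted p = 0.031), and at 0.67 without replicate 3 (adjusted p = 0.00803). Mmp1b, an interstitial collagenase relative, rose from 0.203, 0.222 and 0.159 CPM to 1.31, 1.18 and 1.01 (2.57 ± 0.46, adjusted p = 0.00822). In each of these 4 called genes the G2C9 libraries lay above all Gcontrol libraries, which adds no separate support to the calls. The libraries of these groups did not overlap in 43.3% of all genes. The calls were less firm than that of Mmp3: Mmp10 and Mmp13 kept theirs without 6 of the 9 libraries, with adjusted p up to 0.0962 (without Gcontrol replicate 3) and 0.118 (without Gcontrol replicate 1). Mmp1b lost its call only without Gcontrol replicate 3 (adjusted p = 0.0507).

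The remaining tested members, Mmp12 (macrophage elastase) and Mmp8 (neutrophil collagenase), were not called and stayed under 1.5 CPM in each library. Mmp12 changed by 0.31 ± 0.59 (adjusted p = 0.791) and Mmp8 by 1.01 ± 0.84 (adjusted p = 0.499). In G1C7 none of the 6 was called against Gcontrol, with Mmp3 at 0.40 ± 0.33, Mmp10 at 0.38 ± 0.56, Mmp13 at -0.41 ± 0.29 and Mmp12 at -2.14 ± 0.67. The direct comparison of G2C9 with G1C7 called Mmp3 (3.21, adjusted p = 0.00264) and Mmp13 (1.56, adjusted p = 0.024), but not Mmp10 (2.21, adjusted p = 0.0889) or Mmp1b (1.78, adjusted p = 0.072). Outside the cluster, Dync2h1, Dcun1d5, Tmem123 and Yap1 were called higher by 0.75, 0.60, 0.67 and 0.68 in G2C9. Their G1C7 changes were 0.83, 0.66, 0.93 and 0.59. Dync2h1 passed at an adjusted p of 0.0458. The Dcun1d5 call was lost without Gcontrol replicate 3 (adjusted p = 0.0541). Cep126, a centrosome gene, fell by 3.03 in G2C9, with a G1C7 change of -3.18. The direct comparison of the derivatives called none of Dcun1d5, Tmem123, Yap1 and Cep126 (adjusted p = 0.886, 0.326, 0.692 and 0.946), which does not show that they are alike.

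**Figure D2:**
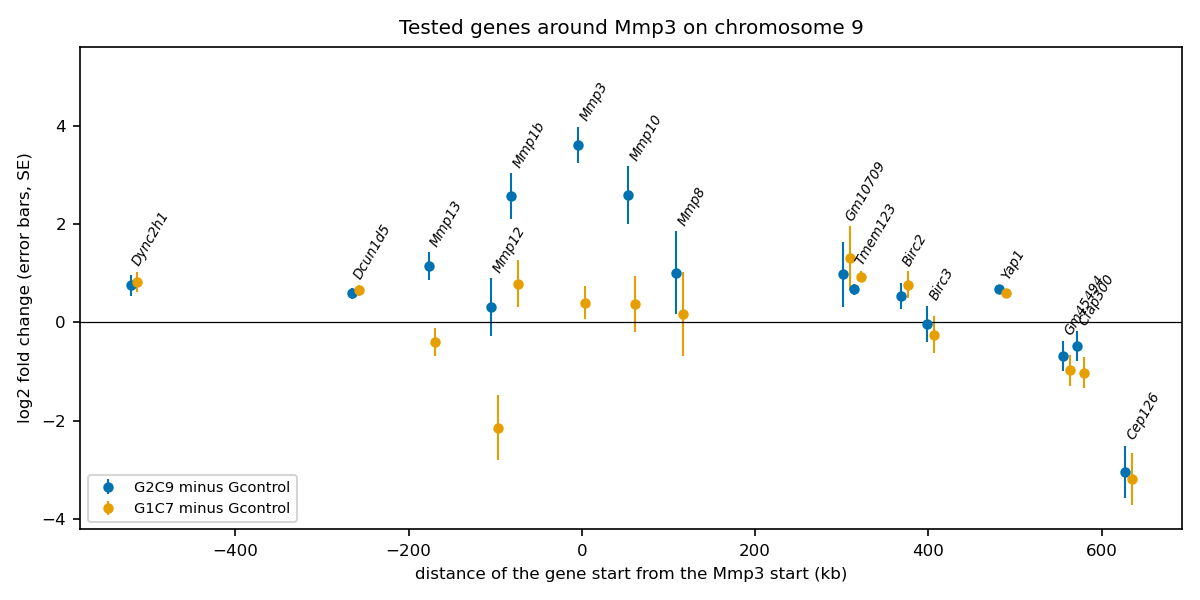
Log2 fold change against Gcontrol (vertical axis, error bars SE) of the tested genes around Mmp3, by distance of the gene start from the Mmp3 start in kb (horizontal axis), for G2C9 (blue) and G1C7 (orange). From Mmp13 to Mmp10 the G2C9 points stand above the G1C7 points, with Mmp3 at 3.61 against 0.40, whereas Dcun1d5 stands at 0.60 and 0.66 and Yap1 at 0.68 and 0.59.

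The promoters of these genes are shown because the called members hold a short element that the uncalled ones lack, a difference noticed after their values were seen. The uncalled members were read at a low level, where a call is hard to reach. Mmp8 changed by 1.01 ± 0.84 and called Mmp13 by 1.15 ± 0.29, so an uncalled member need not be unchanged. The sequences are from RefSeq, build GRCm38.p6, and run 5′ to 3′ from 250 bases before to 50 after the annotated start. Capitals mark matches to the AP-1 letters TGANTCA, bound by Fos and Jun dimers, and in Mmp13 also to the interferon-stimulated response element (ISRE), searched as a pair of TTTC runs 2 bases apart.
Mmp3 (chr9:7445572-7445871, plus strand): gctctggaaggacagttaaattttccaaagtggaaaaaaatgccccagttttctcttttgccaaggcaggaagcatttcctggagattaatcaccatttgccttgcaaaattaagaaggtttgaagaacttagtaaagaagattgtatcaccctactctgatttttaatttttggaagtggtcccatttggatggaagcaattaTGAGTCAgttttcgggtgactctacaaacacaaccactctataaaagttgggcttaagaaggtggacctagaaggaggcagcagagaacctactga
Mmp10 (chr9:7502092-7502391, plus strand): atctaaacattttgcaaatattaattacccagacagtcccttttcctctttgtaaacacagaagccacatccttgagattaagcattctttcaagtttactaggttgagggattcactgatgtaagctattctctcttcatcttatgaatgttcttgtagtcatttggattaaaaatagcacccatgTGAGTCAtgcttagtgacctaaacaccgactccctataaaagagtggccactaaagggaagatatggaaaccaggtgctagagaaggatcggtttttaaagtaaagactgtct
Mmp13 (chr9:7272264-7272563, plus strand): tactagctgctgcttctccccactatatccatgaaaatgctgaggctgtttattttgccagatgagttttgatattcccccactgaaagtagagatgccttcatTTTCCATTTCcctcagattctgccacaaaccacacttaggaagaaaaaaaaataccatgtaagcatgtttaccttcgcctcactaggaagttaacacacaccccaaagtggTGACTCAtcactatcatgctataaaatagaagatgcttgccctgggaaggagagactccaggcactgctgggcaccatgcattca
Mmp1b (chr9:7387977-7388276, minus strand): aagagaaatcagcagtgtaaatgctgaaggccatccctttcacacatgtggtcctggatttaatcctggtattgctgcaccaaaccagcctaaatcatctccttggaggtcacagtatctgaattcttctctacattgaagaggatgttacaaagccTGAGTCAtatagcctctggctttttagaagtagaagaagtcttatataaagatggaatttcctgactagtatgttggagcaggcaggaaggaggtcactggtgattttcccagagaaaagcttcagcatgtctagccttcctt
Mmp12 (chr9:7344147-7344446, plus strand): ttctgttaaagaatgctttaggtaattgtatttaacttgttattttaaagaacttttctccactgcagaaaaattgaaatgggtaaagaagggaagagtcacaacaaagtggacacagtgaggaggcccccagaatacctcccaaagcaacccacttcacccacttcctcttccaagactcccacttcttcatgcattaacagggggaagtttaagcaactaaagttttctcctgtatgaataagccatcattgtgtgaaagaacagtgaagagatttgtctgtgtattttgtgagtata
Counted from the start to the first base of the match, the AP-1 letters stood at -46 in Mmp3, -63 in Mmp10, -35 in Mmp13 and -93 in Mmp1b. Mmp12, and Mmp8 whose promoter is not printed, had no match in this window. All 6 promoters of the cluster were found, and 4 held the letters, searched on both strands. Of all 32851 mouse promoters of this length 7.81% held them, and of the 10808 promoters nearest to the genes tested 5.14%. Among the genes set apart whose promoters were found, 1 of 7 higher (Mmp3 itself) and 2 of 37 lower (5.41%) held them. A match is a string of letters and no sign of binding, and the part of AP-1 in these changes was not tested. The AP-1 genes themselves did not share a direction: Jun rose from 115 ± 6.28 to 174 ± 17.4 CPM (SD, n = 3; 0.60 ± 0.13, adjusted p = 0.0151), Fos fell from 130 ± 3.11 to 36.2 ± 4.09 (-1.85 ± 0.16, adjusted p = 3.00e-04) and Fosb fell from 124 ± 13.6 to 36 ± 6.96 (-1.78 ± 0.34, adjusted p = 0.0108). Their G1C7 means were 230, 32.4 and 28.7 CPM. The Jun call was kept without 4 of the 9 libraries (adjusted p up to 0.0759, without Gcontrol replicate 2), and that of Fosb was lost without G2C9 replicate 2 (0.0506).

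The other 11 genes set apart higher included 3 that encode transcription factors. Gata4 (ENSMUSG00000021944.15, chromosome 14, 63198922 to 63271692, minus strand), a zinc-finger factor of heart and endoderm development, stood at 7.05, 6.18 and 6.13 CPM in G2C9 and at 0.591, 0.923 and 0.952 in Gcontrol (2.97 ± 0.26, adjusted p = 0.00108). In G1C7 it had 0 reads in all 3 libraries, so G2C9 was at least 176-fold above the floor of 6 reads, or 3 read pairs, over that group. The 3 groups were thus ordered without overlap, and the joint call (adjusted p = 0.00655) was kept without 6 of the 9 libraries (highest 0.0636, without Gcontrol replicate 2). Ebf1, a factor of B-cell and fat-cell development, stood at 20.2, 21.5 and 23.6 CPM against 9.72, 9.6 and 9.43 in Gcontrol and 10.1, 9.83 and 8.89 in G1C7 (1.18 ± 0.11, adjusted p = 4.12e-04), and its joint call was kept without each library.

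Hoxa7 (ENSMUSG00000038236.8, chromosome 6, 52214491 to 52221854, minus strand) is a homeobox factor that helps set position along the body axis. It stood at 28, 27.5 and 28.8 CPM in G2C9, at 9.07, 8.88 and 8.55 in Gcontrol and at 13.8, 10.2 and 13.6 in G1C7 (1.67 ± 0.13 against Gcontrol, adjusted p = 2.21e-04). Of 9 Hox genes tested, all from the HoxA cluster, 4 were called higher against Gcontrol and 1 lower, against 6.25% and 7.22% of all genes. Their median change was 0.66, with 0.28 in G1C7 and 0.01 over all genes tested in G2C9. Besides Hoxa7, the genes called higher were Hoxa5 (5.17 ± 0.821 to 11.3 ± 1.38 CPM), Hoxa2 (4.45 ± 0.553 to 7.37 ± 0.441) and Hoxa4 (5.93 ± 0.57 to 8.93 ± 0.337), all SD with n = 3. Hoxa10 was lower, at 0.0396, 0 and 0.039 CPM against a Gcontrol mean of 0.292. The calls of Hoxa2, Hoxa4 and Hoxa10 were kept without 5, 4 and 3 of the 9 libraries (adjusted p up to 0.0945, 0.0943 and 0.12, without Gcontrol replicates 1, 3 and 1). Without both outlying libraries the count was 6 higher and 1 lower, against 25.6% and 27.5% of all genes. Only Hoxa7 was set apart from both groups, since Hoxa5 missed the test against G1C7 (0.78, adjusted p = 0.057).

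Cdh5, which encodes the adhesion protein VE-cadherin, stood at 3.78, 3.28 and 3.59 CPM against 0.795, 0.776 and 0.617 in Gcontrol and 1.27, 0.855 and 1.24 in G1C7 (2.28 ± 0.24, adjusted p = 7.38e-04). Its joint call (adjusted p = 0.0218) was kept without 2 of the 9 libraries and reached 0.126 without G2C9 replicate 1. Cdh5 is also an endothelial marker. Of the other endothelial markers, Flt1 fell from 8.25 ± 0.742 to 2.13 ± 0.287 CPM (adjusted p = 0.00143). Pecam1 stood at 0.158, 0.408 and 0.8 CPM against a Gcontrol mean of 0.187 ± 0.0992 (1.27 ± 0.69, adjusted p = 0.277), and Kdr was not called either (adjusted p = 0.641). Tek, Erg and Vwf had at most 11 reads in any library, and Tie1, Cldn5 and Emcn had 0 reads in all 9. The 10 endothelial markers summed to 6 to 7.12 CPM in the G2C9 libraries and 9.12 to 10.5 in Gcontrol, and their part in the Cdh5 result was not tested.

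Wls, which carries WNT proteins to the cell surface, stood at 212, 214 and 194 CPM against 120, 123 and 114 in Gcontrol and 111, 109 and 118 in G1C7 (0.79 ± 0.08, adjusted p = 6.11e-04), and its joint call was kept without each library. Galm, a sugar mutarotase, rose from 6.95, 6.96 and 6.38 CPM to 19.9, 18.6 and 18.8, with G1C7 at 9.22, 7.94 and 9.37, and was likewise kept. The genes Adamts9 (a secreted matrix protease, 42.1 ± 3.14 to 71.9 ± 3.39 CPM) and Kcnq5 (a potassium channel, 14 ± 0.336 to 24.1 ± 0.937) kept their joint calls without 6 of the 9 libraries, with adjusted p up to 0.0687 and 0.0636 (without Gcontrol replicates 3 and 2). Ccbe1 (a lymphatic matrix protein), Krt80 (a keratin) and Tmem144 kept theirs without 2 (adjusted p up to 0.2, 0.144 and 0.2). Of all 12 genes set apart higher, 5 kept the call without each of the 9 libraries, and all 12 kept it without both outlying libraries. In G1C7 against Gcontrol, 3 of the 12 were called in the same direction, 2 in the opposite direction and 7 were not called.

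**Figure D3:**
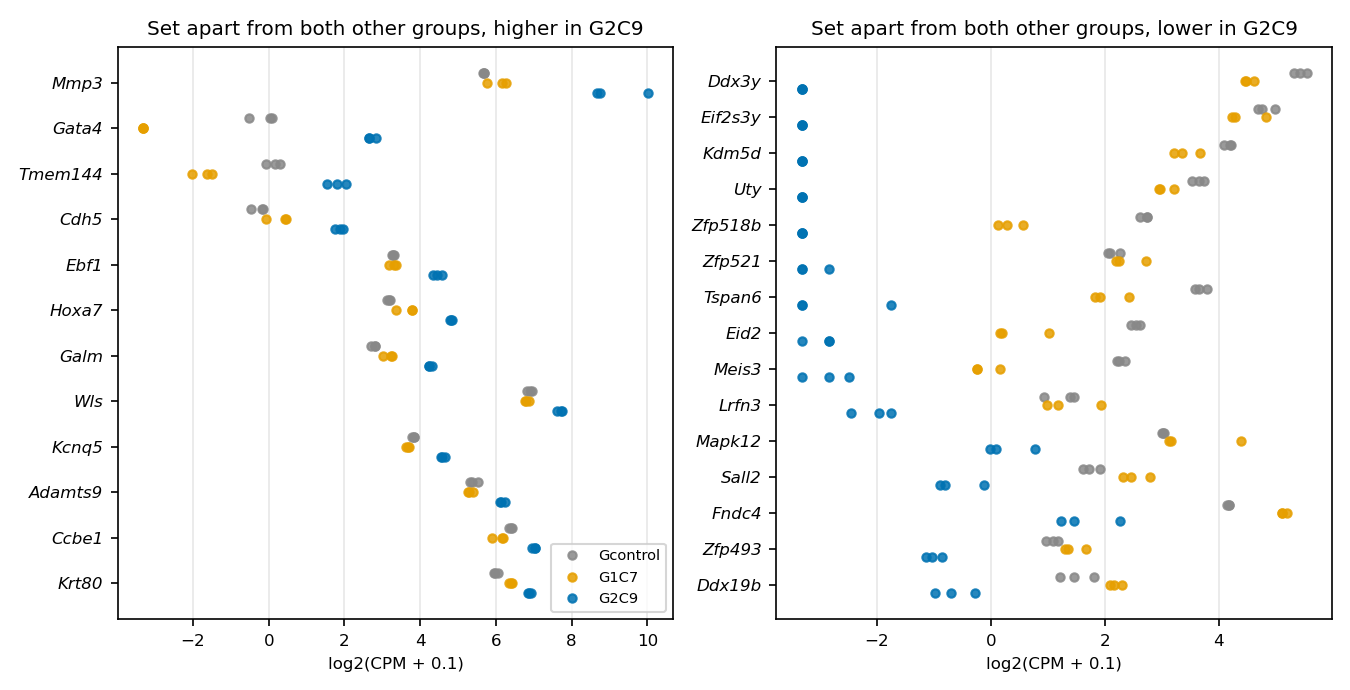
Level of the named genes set apart from both other groups, as log2 of CPM plus 0.1 (horizontal axis), 1 point per library, for Gcontrol (grey), G1C7 (orange) and G2C9 (blue); the 12 higher genes are on the left and 15 of the lower genes on the right. The G2C9 points overlap no point of the other groups, which the rule for naming these genes required. In the right panel Ddx3y, Eif2s3y, Kdm5d, Uty and Zfp518b lie at 0 CPM in all 3 G2C9 libraries.

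Among the 50 genes set apart lower, 5 lie on the Y chromosome, which carries a few broadly expressed genes with partners on the X chromosome. Ddx3y, an RNA helicase gene, stood at 39.6, 46.5 and 42.6 CPM in Gcontrol and 22.2, 24.4 and 22 in G1C7, with 0 reads in the 3 G2C9 libraries, at least 1078-fold below Gcontrol. Summed over the Y chromosome outside Gm47283, the Gcontrol libraries held 5335, 5923 and 5628 reads and the G1C7 libraries 3192, 4139 and 3182. The G2C9 libraries held 10, 4 and 11. Gm47283 differed from this pattern, with 651, 672 and 673 reads in G2C9 and 1024, 922 and 1142 in Gcontrol, and whether its reads come from the Y chromosome was not tested. Of the X-linked partners of these genes 0 of 7 were called, with a median change of -0.06, and 2 were higher and 1 lower without both outlying libraries. Ddx3x stood at 836 ± 130 CPM in G2C9 and 857 ± 21 in Gcontrol (adjusted p = 0.951).

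A second set of genes had few or no reads in G2C9 while G1C7 still expressed them. Zfp518b (ENSMUSG00000046572.10, chromosome 5, 38668484 to 38684826, minus strand), a zinc-finger gene, stood at 6.06, 6.54 and 6.56 CPM in Gcontrol and 1.12, 1.38 and 0.986 in G1C7, with 0 reads in G2C9, at least 161-fold below Gcontrol. Zfp521, a zinc-finger regulator of progenitor cells, had 2 reads in all of G2C9 (0.0396, 0 and 0 CPM) against 4.14, 4.08 and 4.69 CPM in Gcontrol and 4.64, 6.46 and 4.49 in G1C7. Its Gcontrol to G2C9 ratio was 325, with a counting interval of 57.9 to 12867. Eid2, an inhibitor of differentiation that binds p300, stood at 0.0396, 0 and 0.039 CPM against 6.04, 5.76 and 5.4 in Gcontrol and 1.05, 1.93 and 1.02 in G1C7. The homeobox gene Meis3 stood at 0.0396, 0 and 0.0781 CPM against 4.67, 4.56 and 5.01 in Gcontrol and 0.748, 1.02 and 0.749 in G1C7. G1C7 lay between the other groups in Zfp518b, Eid2 and Meis3, and overlapped Gcontrol in Zfp521. The joint calls of Zfp518b, Zfp521 and Eid2 were kept without each library; that of Meis3 was kept without 5 (adjusted p up to 0.0986, without G2C9 replicate 1).

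Further transcription regulators and zinc-finger genes fell only in part. Sall2, a zinc-finger factor of neural development, stood at 0.436, 0.469 and 0.82 CPM against 2.96, 3.66 and 3.21 in Gcontrol and 5.42, 6.84 and 4.89 in G1C7 (-2.50 ± 0.28, adjusted p = 0.00107). Zfp503, a striatal and limb regulator, stood at 2.87, 2.12 and 3.28 CPM against 24, 23.2 and 23.1 and, in G1C7, 6.43, 6.79 and 8.13 (-3.08 ± 0.18, adjusted p = 6.06e-05). Zfp493 fell from a Gcontrol range of 1.85 to 2.16 CPM to 0.356, 0.449 and 0.39, with G1C7 at 2.45, 3.09 and 2.37. Of these 3, Zfp503 lost its joint call when some libraries were left out (kept without 4 of 9, adjusted p up to 0.0732 without G2C9 replicate 1). Over the 50 regional transcription factors tested, of 71 listed, 9 were called higher and 8 lower against Gcontrol. The shares of all genes were 6.25% and 7.22%. The list median was -0.07, with 0.06 in G1C7, and the called genes included Lhx2, which rose (4.31 ± 0.22 to 8.94 ± 0.278 CPM). Without both outlying libraries 17 were higher and 22 lower, against 25.6% and 27.5% of all genes.

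NOTCH signalling passes between neighbouring cells, and NOTCH receptors are modified by sugar transferases before they reach the surface. Notch1 stood at 0.653, 0.53 and 1.29 CPM in G2C9 against 4.29, 4.28 and 4.62 in Gcontrol and 3.63, 4.17 and 3.87 in G1C7 (-2.41 ± 0.32, adjusted p = 0.00205). Poglut1, the enzyme that adds O-glucose to NOTCH, stood at 10.4, 10.6 and 12.4 CPM against 51.8, 49.3 and 49.2 in Gcontrol and 29.1, 21.4 and 30.6 in G1C7 (-2.17 ± 0.15, adjusted p = 1.36e-04). Both were set apart from G1C7 as well, the Notch1 call being kept without 2 of the 9 libraries (adjusted p up to 0.134, without G2C9 replicate 1) and that of Poglut1 without 7 (up to 0.0539, without G2C9 replicate 2). Of 21 pathway genes tested, 6 were called lower and 3 higher, against 7.22% and 6.25% of all genes. The receptor Notch4 fell from 3.4 ± 0.305 to 0.403 ± 0.276 CPM, the Fringe transferase Lfng from 22.4 ± 0.938 to 8.9 ± 2, and the target Hey1 from 5.82 ± 0.197 to 1.88 ± 0.421. The ligand Dll1 rose from 2.91 ± 0.722 to 7.19 ± 2.32 CPM and the DNA-binding partner Rbpj from 449 ± 6.13 to 639 ± 38. Their G1C7 means were 0.282, 15.2, 3.22, 6.63 and 647 CPM in that order, and all but Lfng were called against Gcontrol there too. The Dll1 call was lost without Gcontrol replicate 1 or 2 (adjusted p up to 0.0702). With both outlying libraries left out, 12 were called lower and 4 higher, against 27.5% and 25.6% of all genes.

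Several surface, growth factor and basement membrane genes were set apart lower. Sdc3 (ENSMUSG00000025743.14, chromosome 4, 130792537 to 130826319, plus strand), the heparan sulfate proteoglycan syndecan-3, had, after 3830406C13Rik, the lowest joint adjusted p outside the Y chromosome. It stood at 13.5, 13.3 and 13.7 CPM in G2C9, 74.3, 73.7 and 80.5 in Gcontrol and 47, 45.2 and 42.9 in G1C7 (-2.50 ± 0.08, joint adjusted p = 3.29e-05). Tgfa, a ligand of the EGF receptor, stood at 0.772, 0.796 and 0.703 CPM against 8.98, 7.79 and 7.07 in Gcontrol and 3.18, 3.51 and 2.34 in G1C7 (-3.39 ± 0.22, adjusted p = 1.12e-04). Pkp1, a desmosome plaque protein, stood at 6.79, 7.06 and 3.4 CPM against 70.3, 71.3 and 72.9 in Gcontrol and 26.9, 22.4 and 26.6 in G1C7. In these 3 genes G1C7 lay between the other groups, and the joint calls were kept without each library.

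Col4a1, a chain of the type IV collagen network of basement membranes, differed in G2C9 alone: 193, 179 and 187 CPM against 343, 321 and 370 in Gcontrol and 326, 335 and 300 in G1C7 (-0.89 ± 0.09, adjusted p = 6.11e-04). The joint call was kept without 8 libraries and was lost without G2C9 replicate 2 (adjusted p = 0.0535). Its partner chain Col4a2 fell from 252 ± 17.5 to 104 ± 9.24 CPM with a G1C7 mean of 179, and its joint test missed (adjusted p = 0.0692). Ezr (ezrin, which ties membrane to actin), Epb41 (a membrane skeleton protein), Ptprb (a receptor phosphatase) and Tgfb1i1 (a focal adhesion adaptor) were lower, with changes of -0.92, -0.93, -1.36 and -1.14, and kept their joint calls without each library. Ezr and Tgfb1i1 were called in the opposite direction in G1C7, where Tgfb1i1 stood at 52.6, 52.1 and 57.4 CPM against 37.2, 36.8 and 38.2 in Gcontrol and 14.8, 16.1 and 20.1 in G2C9. The same held for Fndc4, a secreted fibronectin-domain protein, at 2.26, 2.65 and 4.7 CPM in G2C9, 18.1, 17.6 and 17.9 in Gcontrol and 34.2, 36.4 and 34.6 in G1C7.

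Other genes set apart lower had less firm calls. Tspan6, a tetraspanin, stood at 0, 0 and 0.195 CPM against 12.4, 13.8 and 11.9 in Gcontrol and 3.44, 5.24 and 3.65 in G1C7, and its joint call was kept without 4 of the 9 libraries. The stress kinase gene Mapk12 stood at 0.891, 0.959 and 1.62 CPM against 7.98, 8.11 and 7.95 in Gcontrol and 8.86, 20.8 and 8.58 in G1C7, also kept without 4. Adjusted p reached 0.0848 for Tspan6 (without Gcontrol replicate 2) and 0.146 for Mapk12 (without G2C9 replicate 2). Lrfn3, a synaptic adhesion gene, at 0.198, 0.0816 and 0.156 CPM against 2.53, 1.81 and 2.64 in Gcontrol, was kept without each library. Of the 50 genes, 21 were kept without each library and 50 without both outlying libraries. In 32 of them the highest G2C9 library lay below 50% of the lowest library of the other groups. Against Gcontrol, G1C7 was called lower in 16 of the 50, higher in 3 and not called in 31.

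Off the Y chromosome, 53 of 57 genes set apart had no other such gene among the tested genes within 1 Mb of their start. Since only 0.396% of all genes tested were set apart, few such neighbours would be found in any case. Whether this spacing differs from that of other genes was not tested. The exceptions, all on chromosome 4, were Adamtsl1 with Cntln and Sdc3 with Tinagl1. Of 6 tested genes in the 1907 kb around Adamtsl1, 4 were called lower against Gcontrol and 0 higher, against 7.22% and 6.25% of all genes. The bounds were set around genes already known to be set apart, and the 4 include Adamtsl1 and Cntln themselves. Adamtsl1, a secreted matrix glycoprotein, stood at 0.97, 0.857 and 0.761 CPM against 15.3, 13.5 and 16.5 in Gcontrol and 2.84, 7.08 and 2.99 in G1C7. Plin2, which coats lipid droplets, stood at 111, 107 and 124 CPM against 260, 267 and 262 (-1.20 ± 0.09, adjusted p = 1.81e-04) and 139, 159 and 149 in G1C7. The joint calls of Adamtsl1 and Cntln were kept without 3 and 1 of the libraries (adjusted p up to 0.202 and 0.237, without G2C9 replicate 2).

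Genes among the largest changes against Gcontrol are given with their G1C7 levels, except Serpine2. Slc14a1, a urea transporter, stood at 31.7, 31.5 and 29.9 CPM against 0.591, 0.683 and 0.987, with G1C7 at 65.2, 28.6 and 61.1. Lrrc36 had 2 reads in all of Gcontrol and stood at 3.05, 2.2 and 3.38 CPM in G2C9 and 2.21, 3.71 and 2.12 in G1C7. Ptn, the heparin-binding growth factor pleiotrophin, stood at 39.8, 42.2 and 154 CPM against 4.62, 4.06 and 4.21 (4.20 ± 0.71, adjusted p = 0.0064; 3.26 without G2C9 replicate 3) and 14.5, 51.1 and 15.3 in G1C7. On the lower side, Ptgr2 and Igsf9b had 0 reads in the 3 libraries of both derivatives and were at least 199- and 185-fold lower in G2C9 than in Gcontrol. Nsg1, Jaml and Sall1 had 0 reads in G2C9 and at most 0.0365 CPM in G1C7. Serpine2, an inhibitor of serine proteases, fell from 98.8, 103 and 95.5 CPM to 0, 0.0408 and 0. Since both derivatives were compared with the same Gcontrol libraries, these values are set side by side with no test of likeness.

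Among genes with the largest differences in CPM, Spp1 (osteopontin) rose from 1391 ± 63.1 to 2635 ± 1121 CPM, with G2C9 libraries at 1915, 2064 and 3927. Its call was kept without 4 of the 9 libraries (adjusted p = 0.0416, up to 0.146 without Gcontrol replicate 3). Grem1 (gremlin-1, a BMP antagonist) rose from 913 ± 6.11 to 1681 ± 252 CPM and Ctsl (cathepsin L) from 811 ± 24.8 to 1378 ± 128, and both calls were kept without each library. Smarca5, a chromatin remodelling ATPase, fell from 1775 ± 93.5 to 941 ± 131 CPM and Csf1, the macrophage growth factor, from 1227 ± 23.7 to 825 ± 25.5. For Csf1 the derivatives differed, with G1C7 at 618, 622 and 606 CPM (0.42 for G2C9 minus G1C7, adjusted p = 0.0198). Mtpn, an inhibitor of actin capping, rose from 416 ± 28.3 to 752 ± 149 CPM.

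Gene groups by role are given as counts of called members beside the background of 6.25% higher and 7.22% lower. These lists describe and carry no test of their own. Proteases and their inhibitors changed in both directions: of 19 matrix metalloproteinases and TIMPs, 3 were called higher and 5 lower, Mmp1b not being on this list. Beside the gain of the cluster described above, Mmp9 (gelatinase B) fell from 5.46 ± 0.65 to 0.449 ± 0.187 CPM, and the called inhibitors Timp1, Timp2 and Timp3 changed by -0.57, -0.42 and -0.56. Their G1C7 means were 0.392, 183, 887 and 444 CPM, against Gcontrol means of 295, 1171 and 468 CPM for the 3 inhibitors. The inhibitor calls were kept without 4, 4 and 1 of the 9 libraries, with adjusted p up to 0.0729, 0.069 and 0.167 (without G2C9 replicate 2 and Gcontrol replicates 1 and 3). Of 18 ADAM and ADAMTS proteases, 3 were higher and 5 lower. In the fit that leaves out both outlying libraries, 6 and 7 of these groups were higher and 9 and 10 lower, against 25.6% and 27.5% of all genes. Adam8 fell from 13.6 ± 1.1 to 2.06 ± 0.381 CPM and Adamts2, the procollagen N-proteinase, from 11.8 ± 0.672 to 0.0524 ± 0.0454. The G1C7 means of Adam8 and Adamts2 were 2.03 and 0.0485 CPM.

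Structural matrix genes were called lower more often than higher. Of 20 collagens 3 were lower and 1 higher, with a median of -0.37, and of 25 matrix glycoproteins and proteoglycans 4 were lower and 2 higher, with a median of -0.10. The G1C7 medians of these lists were -0.34 and -0.10. Acan (aggrecan) stood at 1.46, 1.18 and 0.586 CPM against 82.6, 78.3 and 83.8 (-6.24 ± 0.36, adjusted p = 5.88e-05) and at 3.98, 2.4 and 4.46 in G1C7. Fbn2 (fibrillin-2) stood at 0.119, 0.0816 and 0.234 CPM against 6.25, 5 and 6.89 in Gcontrol and 0.748, 1.57 and 0.657 in G1C7. G2C9 was below G1C7 in both genes (Acan adjusted p = 0.0226, Fbn2 0.0176). Vcan (versican) went the other way, from 236 ± 22.9 to 423 ± 103 CPM, a call kept without 3 of the 9 libraries (adjusted p up to 0.148, without Gcontrol replicate 2). The medians differed between libraries: the collagens had a median of -0.62, -0.77 and 0.14 in G2C9 replicates 1, 2 and 3. With the outlying libraries left out, 13 collagens and 15 glycoproteins were called lower, and 2 and 5 higher, against 27.5% and 25.6% of all genes.

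Ligands and receptors of growth factor pathways were called higher more often than lower. Of 31 growth factor ligands 7 were called higher and 2 lower (median 0.35), and of 20 receptor tyrosine kinases 5 were higher and 2 lower (median 0.34). In G1C7 the medians of these lists were 0.29 and 0.32. Igf1 stood at 3.09, 3.18 and 3.08 CPM against 0.517, 0.554 and 0.458 (2.61 ± 0.41, adjusted p = 0.0044). Ereg, the EGF receptor ligand epiregulin, stood at 421, 423 and 745 CPM in G2C9, with means of 275 in Gcontrol and 224 in G1C7. Ereg exceeded G1C7 as well (1.24, adjusted p = 0.0163), although its joint test missed (adjusted p = 0.15) and its call against Gcontrol was kept without 6 libraries (up to 0.0851, without Gcontrol replicate 3). Thus the EGF receptor ligands moved apart, with Ereg and Btc (2.62 ± 0.372 to 5.29 ± 0.548 CPM) higher and Tgfa lower. Pdgfra, a receptor of glial progenitors and of many gliomas, stood at 414, 390 and 541 CPM against 249, 238 and 257 (0.85 ± 0.18, adjusted p = 0.016) and at 332, 491 and 331 in G1C7. The Pdgfra call was kept without 6 of the 9 libraries (up to 0.069, without Gcontrol replicate 2). Leaving out both outlying libraries, 15 ligands were higher and 10 lower, and 11 receptors were higher and 5 lower, against 25.6% and 27.5% of all genes.

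In the TGF-beta and BMP pathway 8 of 39 genes were called higher and 5 lower. The ligand Bmp4 (42.3 ± 0.789 to 98.4 ± 24.6 CPM), the receptor Bmpr1b (6.2 ± 0.879 to 11.7 ± 1.2), the transducer Smad1 (47.1 ± 1.57 to 88.1 ± 11) and the antagonist Grem1 rose. The inhibitory Smads Smad6 and Smad7 fell from 15.2 ± 0.615 to 7.32 ± 0.418 and from 77.8 ± 2.46 to 48.7 ± 8.18 CPM, and the target Id3 fell from 327 ± 5.37 to 161 ± 1.88. The G1C7 mean of Bmpr1b was 5.42 CPM, near Gcontrol, while those of Bmp4, Smad1, Smad6, Smad7 and Id3 were 86.5, 87, 8.2, 42.7 and 154. The Bmp4 call was kept without 3 of the 9 libraries (up to 0.109, without Gcontrol replicate 3). Leaving out both outlying libraries gave 15 higher and 16 lower, against 25.6% and 27.5% of all genes. In the WNT pathway 6 of 38 were higher and 5 lower, and 8 and 18 without both outlying libraries. The co-receptor Lrp5 fell from 46.1, 40.4 and 49.2 CPM to 10.8, 8.59 and 14.6 (-1.99 ± 0.26, adjusted p = 0.00197), with G1C7 at 19.9, 34.3 and 20.4. The ligand Wnt4 fell from 6.27 ± 0.477 to 0.239 ± 0.172 CPM, and the receptor Fzd4 rose from 5.26 ± 0.363 to 12.6 ± 1.23, a call kept without 5 libraries (up to 0.0881, without Gcontrol replicate 1). The Hedgehog effector Gli2 stood at 1.79, 1.7 and 2.45 CPM in Gcontrol and had 0 reads in G2C9, at least 50-fold lower.

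Of 42 semaphorin, plexin, netrin and slit genes, which guide axons and migrating cells, 10 were called lower and 4 higher, and 16 and 9 without both outlying libraries. Sema4d fell from 1.37 ± 0.0693 to 0.072 ± 0.0898 CPM and Plxnb1, which encodes its receptor plexin-B1, from 4.12 ± 0.295 to 0.817 ± 0.396, with G1C7 means of 0.116 and 2.41. Sema3a, Sema3c and Sema5a rose, Sema3c from 244 ± 2.74 to 511 ± 78 CPM with a G1C7 mean of 276. The Plxnb1, Sema3a and Sema3c calls were kept without 4, 6 and 6 of the 9 libraries (adjusted p up to 0.113, 0.056 and 0.0826, reached when G2C9 replicate 1, Gcontrol replicate 1 and Gcontrol replicate 3 were left out). Of 22 cholesterol synthesis genes 4 were higher and 0 lower, and of 16 fatty acid genes 4 were higher and 1 lower. The medians of these lists were 0.26 and 0.18 in G2C9 and 0.58 and 0.16 in G1C7. Acsl1, a fatty acid ligase, rose from 24.4 ± 1.3 to 41.5 ± 0.667 CPM with a G1C7 mean of 29.3. Cell division genes were close to the background or under it, with 2 of 32 replication genes higher and 1 of 29 mitosis genes lower. Without both outlying libraries 19 replication and 15 mitosis genes were higher and 4 and 5 lower, 14 cholesterol genes were higher and 2 lower, and 9 fatty acid genes were higher and 4 lower, against 25.6% and 27.5% of all genes. Of 13 PRC2 and H3K27 demethylase genes, of interest because diffuse midline gliomas often carry altered histone H3, 0 were called, and 3 in each direction without both outlying libraries, about the share of all genes in that fit.

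**Figure D4:**
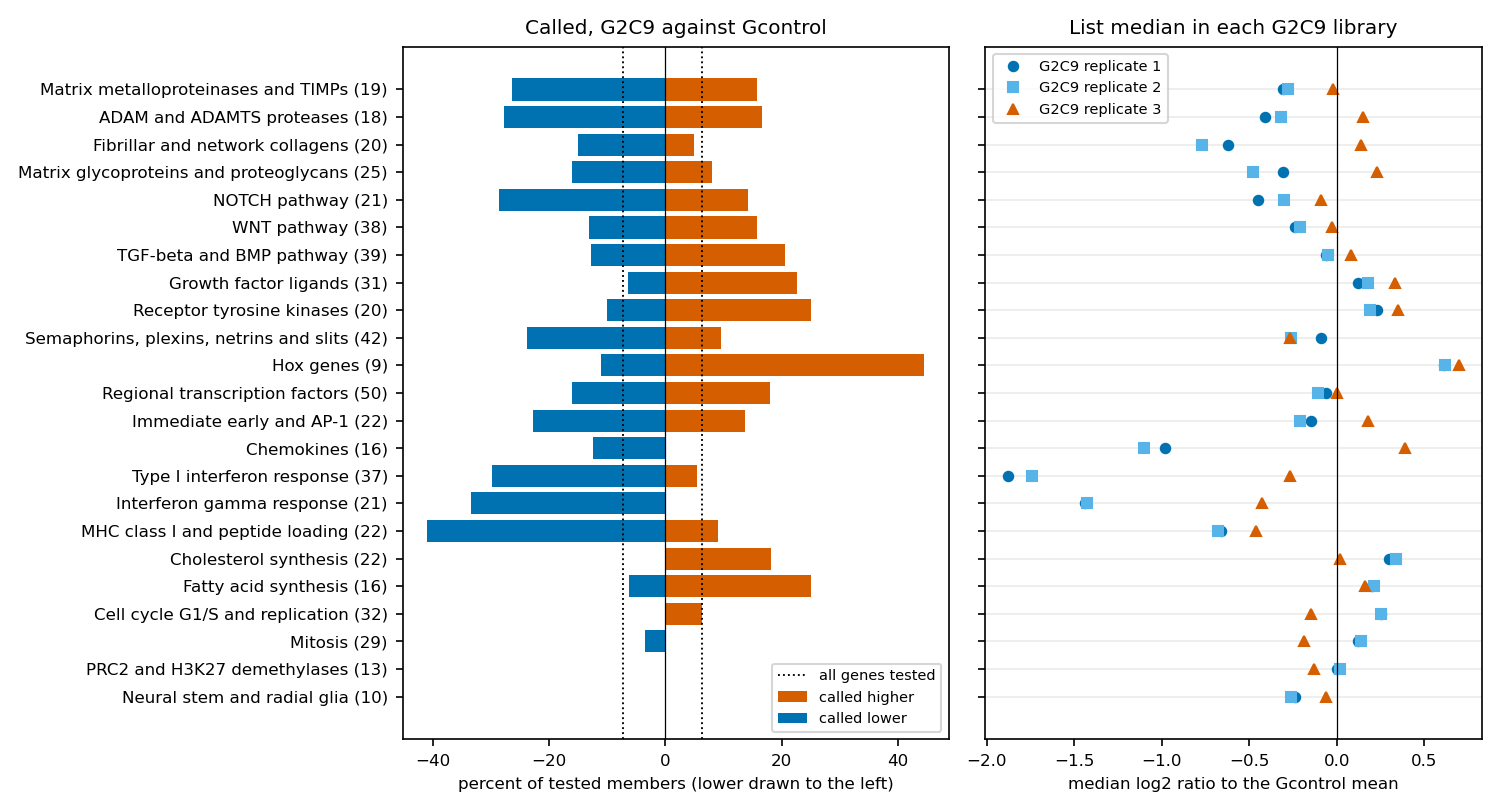
Left, percent of tested members called higher (orange) or lower (blue, drawn to the left) against Gcontrol for 23 gene lists, with the number tested in parentheses and dotted lines at the share of all genes tested, 6.25% and 7.22%. Right, the median log2 ratio of each list to the Gcontrol mean in each G2C9 library, where replicate 3 lies apart from replicates 1 and 2 in the interferon and chemokine lists (-0.27 against -1.88 and -1.74 for type I interferon).

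Genes induced by interferons, the antiviral cytokines, were called lower in a larger share than all genes. Of 37 type I interferon genes 11 were lower and 2 higher (median -1.11), of 21 interferon gamma genes 7 were lower and 0 higher (median -0.86), and of 22 genes of MHC class I and peptide loading 9 were lower and 2 higher (median -0.57). The G1C7 medians of these 3 lists were -1.82, -0.96 and -0.24, and 0 of their genes were set apart from both other groups. The size depended on the library: the type I median was -1.88, -1.74 and -0.27 in G2C9 replicates 1, 2 and 3, and without both outlying libraries 31 were lower and 3 higher, against 27.5% and 25.6% of all genes. In that fit 16 interferon gamma genes were lower and 2 higher, and 18 MHC class I genes were lower and 3 higher. Gbp2, an interferon-induced GTPase, stood at 28.4, 27.3 and 30.3 CPM in G2C9 against 78.1, 79 and 75 in Gcontrol and 15.2, 11.4 and 14.5 in G1C7 (-1.43 ± 0.11, adjusted p = 2.40e-04). The 3 G2C9 libraries of Gbp2 lay close together, and it was higher in G2C9 than in G1C7 (1.06, adjusted p = 0.00211). Gbp3 stood at 2.22, 2.12 and 3.47 CPM against 11.1, 13.1 and 10.9 and in G1C7 at 1.76, 1.78 and 2.03. Rsad2, the antiviral enzyme viperin, stood at 1.44, 1.4 and 1.38 CPM in Gcontrol and had 0 reads in G2C9, at least 35.3-fold lower. H2-T22, a non-classical MHC gene, went up, from 47.8, 45.9 and 46.8 CPM to 94.6, 92.5 and 241, and its call was kept without 6 of the 9 libraries (adjusted p = 0.0318, up to 0.115 without Gcontrol replicate 3).

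The Gbp3 promoter shows an element found in many but not all promoters of this gene group, the interferon-stimulated response element. Capitals mark it where 2 overlapping matches begin at -45 (RefSeq, GRCm38.p6, both strands searched).
Gbp3 (chr3:142559794-142560093, plus strand): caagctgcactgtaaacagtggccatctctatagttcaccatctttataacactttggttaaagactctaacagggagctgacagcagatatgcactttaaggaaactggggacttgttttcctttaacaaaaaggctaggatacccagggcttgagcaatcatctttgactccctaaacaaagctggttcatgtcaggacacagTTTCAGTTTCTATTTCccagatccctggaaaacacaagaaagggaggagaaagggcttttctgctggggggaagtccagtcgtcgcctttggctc
Of the promoters found, 16 of 26 in the type I list (61.5%) and 10 of 16 in the interferon gamma list (62.5%) held these letters, against 3.44% of all promoters and 3% of those nearest to genes tested. Which genes carry the element says nothing of how they changed in G2C9.

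Chemokine levels differed between the G2C9 libraries. Of 16 tested, 2 were called lower, Cxcl16 (19.6 ± 0.845 to 5.02 ± 2.41 CPM) and Ccl9 (9.39 ± 1.78 to 3.19 ± 0.31), and 0 higher. The Ccl9 call was kept without 3 of the 9 libraries (up to 0.142, without Gcontrol replicate 2). Without both outlying libraries 11 chemokines were lower and 3 higher, against 27.5% and 25.6% of all genes. The list median was -0.98 and -1.10 in replicates 1 and 2 and 0.39 in replicate 3. Cxcl1, a neutrophil attractant, stood at 1286, 1373 and 5631 CPM with a Gcontrol mean of 1191 ± 78.8 (adjusted p = 0.341), and Cxcl10, an interferon-induced chemokine, at 8.89, 9.55 and 54.8 with a Gcontrol mean of 50.5 ± 0.886 (adjusted p = 0.459). In both genes replicate 3 stood far above replicates 1 and 2.

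Markers of immune cells were uneven. The macrophage markers Adgre1, C1qa, C1qb, C1qc and Tyrobp had 0 reads in all 9 libraries, whereas Tmem119 stood at 28.7, 28.7 and 92 CPM in G2C9 against a Gcontrol mean of 31.3 ± 1.23. Lyz2 stood at 0.792, 0.735 and 5.41 CPM against 0.231 ± 0.0248 (3.31, adjusted p = 0.0531, and 0.00195 without both outlying libraries). Cd68 stood at 2.51, 2.35 and 4.04 CPM and P2ry12 at 1.64, 1.67 and 2.85, against Gcontrol means of 4.14 and 1.95. Of 6 macrophage markers tested 0 were called, and 1 was higher and 2 lower without both outlying libraries. The 16 markers summed to 34.4 to 105 CPM in G2C9 and 38.5 to 40.3 in Gcontrol, and the 10 T and NK cell markers to 0.356 to 0.878 and 0.0705 to 0.37. The part of such cells in the results was not tested. Of the tumour line's own markers, 0 of 10 neural stem and 0 of 8 astrocyte genes were called, and 3 neural stem genes were higher and 5 lower, and 2 astrocyte genes higher and 2 lower, without both outlying libraries. Vim stood at 1956 ± 116 CPM against 1815 ± 21.2. Sox2, a neural stem cell factor, stood at 40.1, 40.8 and 23.1 CPM against 69.5 ± 0.273 (adjusted p = 0.101, and 9.29e-10 without both outlying libraries), with all G2C9 libraries below Gcontrol. Tnc, on the same list, went the other way, with 14365, 12543 and 29491 reads in G2C9 and 7615, 6871 and 8031 in Gcontrol. Sox9 differed by library, with 3156, 3245 and 1697 reads in G2C9 and 2892, 2859 and 3058 in Gcontrol. Olig1 and Olig2, which define the oligodendrocyte lineage in many midline gliomas, had 0 reads in all 9 libraries, and Sox10 at most 2. Of the 3 precursor markers tested, Pdgfra and Nkx2-2 (4.04 ± 0.408 to 8.63 ± 0.651 CPM) rose and Cspg4 (NG2) fell, from 44.5, 38.4 and 47.7 CPM to 4, 3.39 and 5.41. G1C7 was lower still in Cspg4, at 1.53, 0.91 and 1.46 CPM (1.71 for G2C9 minus G1C7, adjusted p = 0.00727).

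By position, the calls were spread unevenly over chromosomes. On chromosome 11, 215 of 1232 genes tested were called lower and 17 higher, with a median change of -0.28. Chromosome 10 had 131 of 771 higher and 22 lower, with a median of 0.27. On chromosomes 13 and 8, 24.8% and 23.6% of genes were called, with medians of 0.20 and 0.16. These medians were nearly equal in the 3 G2C9 libraries, including replicate 3, with chromosome 11 at -0.30, -0.28 and -0.30 and chromosome 10 at 0.23, 0.24 and 0.31. G1C7 had medians of -0.20 and 0.28 on these chromosomes. The derivatives were farther apart on chromosome 17 (0.12 in G2C9, 0.41 in G1C7), chromosome 3 (-0.08 and -0.33) and chromosome 6 (0.15 and 0.01), as descriptions with no test.

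In windows of 10 Mb, the genes at 100 to 110 Mb of chromosome 8 had a median of 0.61, with 48 of 112 called higher and a G1C7 median of 0.57. The window holding the metalloproteinases, the first 10 Mb of chromosome 9, had a median of 0.6 in G2C9 and 0.42 in G1C7, with 12 of 28 called higher. At 50 to 60 Mb of chromosome 12 the median was -0.54 in G2C9 and -0.26 in G1C7, with 18 of 42 called lower. Nearer its start G2C9 lay above G1C7, with medians of 0.06 and -0.39 at 0 to 10 Mb and 0.12 and -0.25 at 30 to 40 Mb. The medians over all of chromosome 12, -0.16 and -0.20, do not show this. On chromosome 3 the derivatives were apart at 100 to 110 Mb (-0.1 in G2C9 and -0.55 in G1C7) and close at 50 to 60 Mb (-0.04 and -0.03). Copy number was not measured, and its part in these medians was not tested. The mitochondrial genes went with the library: their median was -0.02, -0.15 and -0.55 in G2C9 replicates 1, 2 and 3.

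**Figure D5:**
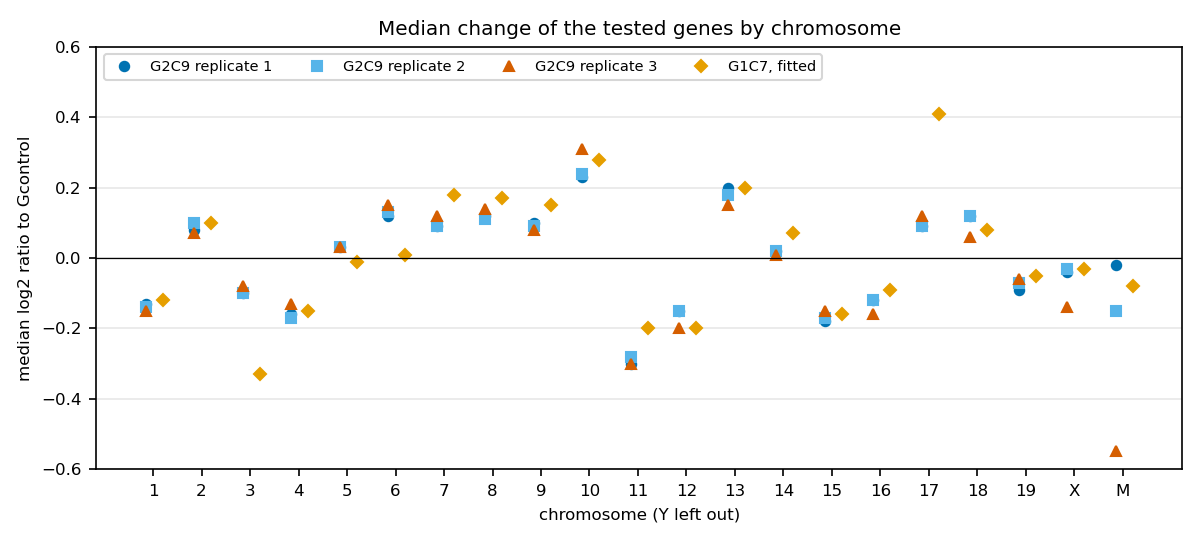
Median log2 ratio to Gcontrol of the tested genes (vertical axis) for each chromosome (horizontal axis, Y left out, M mitochondrial), for each G2C9 library and for the fitted G1C7 change. The G2C9 libraries lie close together on the autosomes, lowest on chromosome 11 and highest on chromosome 10, and G1C7 stands apart from them on chromosomes 3, 6 and 17.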

How the data were processed

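Poly(A) RNA of 9 libraries was counted by the authors: the deposited values are whole-number counts of reads per gene made with featureCounts 1.6.0 on GENCODE vM25 (GRCm38), per the file headers. FastQC 0.11.8 and STAR 2.6.1c are named in the submitters' processing notes. Options for pairs, strand and multi-mapping reads were absent from the headers, so mates were counted separately, strand was ignored and ambiguous reads were dropped. Reads of antisense or overlapping genes and near-identical copies are therefore uncertain. Symbols came from GENCODE vM21 for 55141 of 55401 IDs.

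All 9 libraries entered 1 edgeR 4.0.16 robust quasi-likelihood fit (R 4.3.3) with TMM scaling and filterByExpr (15659 genes, 6 residual degrees of freedom, common biological coefficient of variation 0.248). P-values were Benjamini-Hochberg adjusted over all genes. The joint test took the larger p of both comparisons for genes with 1 sign. Each SE was derived from the fold change and the F statistic of its test. Folds against 0 reads use a floor of 6 reads (3 read pairs) over the group. Ratios with few reads carry 95% exact counting intervals in read pairs. Counting error alone enters these intervals and floors.

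The comparison, the 62 gene lists, the naming rule and the alternatives were chosen with earlier results of these data known. Named were protein-coding genes with the largest changes against Gcontrol (12 per direction) or against both groups (15 per direction), with the largest CPM differences (10 per direction), and up to 3 called members per list and direction, or the 2 most abundant where none was called. Genes of the first 2 kinds had to be called, to have no Gm or Rik name and to reach a mean of 1 CPM in the highest group. Their libraries also had to show no overlap between the groups compared, so the separation of these genes was set by the rule. From the genes the rule gives, and from the genes set apart, those described were picked after their values were seen, as were single neighbours and list members named outside it (among them Cep126, Dcun1d5, Hoxa5, Poglut1 and Sdc3). On simulated data of 15300 genes, where 100 had a 2-fold and another 100 a 4-fold change, edgeR recovered 54 and 97 for G2C9 against Gcontrol (11 of 162 calls false) and 48 and 92 for the joint test (1 of 141). The changed genes all had a mean of at least 1 CPM and changed in G2C9 alone. Libraries were drawn independently, so outlying libraries were not simulated, and these rates need not hold for the real libraries or for lower genes.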

Additional observations from a re-analysis of the deposited data

Results flagged for a closer look

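In 8 genes, taken from the named genes and the genes set apart, the derivatives were called in opposite directions against Gcontrol, and the direct test of the difference between G2C9 and G1C7 passed. Gata4 was higher in G2C9 and had 0 reads in G1C7. The fitted difference of 11.42 (log2, edgeR adjusted p = 2.05e-04) depends on the prior count, and the measured bound is at least 176-fold. Tmem144 stood at 2.79, 4.04 and 3.4 CPM in G2C9, 0.85, 1.13 and 1.02 in Gcontrol and 0.224, 0.255 and 0.146 in G1C7, a difference of 4.02 ± 0.30 (adjusted p = 3.15e-04). Impact, an imprinted translation regulator, stood at 111, 112 and 105 CPM in G2C9, 56.3, 60.4 and 57.6 in Gcontrol and 41.5, 25.1 and 40.3 in G1C7, a difference of 1.62 ± 0.17 (adjusted p = 0.00213). Slc16a3, a lactate transporter, stood at 8.02, 7.79 and 34.5 CPM in G2C9, 3.99, 3.51 and 4.02 in Gcontrol and 0.916, 0.4 and 1.1 in G1C7, a difference of 4.38 ± 0.67 (adjusted p = 0.0112). Its call against Gcontrol was kept without 3 of the 9 libraries (adjusted p up to 0.163, without Gcontrol replicate 2). Fndc4, Tgfb1i1, Ezr and Cbr3 were lower in G2C9 and higher in G1C7, with differences of -3.45, -1.67, -1.24 and -0.86 (adjusted p = 3.15e-04, 3.07e-04, 2.85e-04 and 0.00332). The calls of Impact and Cbr3 against Gcontrol were kept without 7 and 5 of the 9 libraries, with adjusted p up to 0.0564 and 0.0717, both without Gcontrol replicate 1.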

How the results depend on the processing

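Counts of called genes depended on the libraries and the model fitted, and the main counts were 2109 against Gcontrol, 526 against G1C7 and 62 set apart. DESeq2 1.42.0 called 3190, 1267 and 293. With only the libraries of the 2 groups compared, 3212 and 80 were called, and the joint test could not be run. The fit with the replicate number as a block called 1114, 164 and 18. Replicate numbers did not pair the samples: same-numbered G2C9 and Gcontrol libraries deviated from their group means with correlations of 0.00351, 0.0469 and 0.016. Leaving out each library in turn gave 878 to 4113, 186 to 1286 and 30 to 175, highest in each case without G1C7 replicate 2 and, against Gcontrol, lowest without Gcontrol replicate 1 (878), with 1022 and 938 without Gcontrol replicates 2 and 3 and 1185 and 1175 without G2C9 replicates 1 and 2. Leaving out G2C9 replicate 3 kept all 3 counts within 1.5 times (2334, 585 and 78), and leaving out any other library moved the count against G1C7 by more. Without G2C9 replicate 3 and G1C7 replicate 2, an alternative chosen after seeing the data, 8383, 4320 and 1474 were called. Of the genes set apart, 19.4% were higher over all libraries, 32.4% with DESeq2 and 40% without those 2 libraries. RLE scaling, limma-voom, counts halved and other filters stayed within 1.5 times of each count (1587 to 2273, 403 to 556 and 63 to 83). Of 232 called single-gene results, 114 were kept in all 17 other settings, 122 without each library, 147 with the replicate block and 232 without those 2, and 0 reversed. Low counts limit genes under 1 CPM, where a fold rests on few read pairs.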
